A study of Mus musculus with 12 samples.

Results

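A set of 4 scavenger receptor genes that take part in the binding of oxidised low-density lipoprotein (oxLDL) were followed across 12 Mouse Exon arrays: Cd36 (ENSMUST00000082367), Msr1 (ENSMUST00000026021), Marco (ENSMUST00000027639) and Olr1 (ENSMUST00000032265). The members were fixed as 4 transcript IDs with their gene names, 1 probe set each, and all 4 were found among the 74007 probe sets of the table. The names come from that list of members, since the tables used here do not pair Ensembl transcript IDs with genes. Each array held RNA of macrophages grown from the femoral bone marrow of 1 female mouse aged 8 to 12 weeks, on a C57BL/6J background, fed normal chow. The wild-type (WT) mice and the Atf3-/- mice, which lack the stress-induced transcription factor Atf3, numbered 6 each. All cultures received recombinant human macrophage colony-stimulating factor (M-CSF) at 50 ng/mL. From day 7, cells of 3 mice per genotype were given copper-oxidised human LDL at 25 ug/mL for 24 h, and cells of 3 other mice were left unstimulated. The labels name no promoter or cell type to which the knockout (KO) was limited.

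Scavenger receptors are cell-surface proteins of unrelated families that recognise modified lipoproteins as well as microbial surfaces and dying cells. Unlike the LDL receptor they are not shut down by cholesterol, so a macrophage that takes up oxLDL through them can fill with lipid and become a foam cell. Cd36 is a class B receptor that binds oxidised phospholipids and long-chain fatty acids, and its gene is a target of the nuclear receptor PPAR-gamma. Msr1 (scavenger receptor A) and Marco are class A receptors with collagen-like stalks. Olr1 (LOX-1) is a C-type lectin-like receptor best known from endothelial cells.

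RefSeq promoter windows of the mouse build GRCm38.p6, from 250 bases before to 50 bases after an annotated start, were matched by symbol for 3 of the 4 members, Cd36, Marco and Olr1. The windows of Cd36, the receptor with the clearest response to oxLDL, and of Olr1 are shown because Atf3 is a basic leucine zipper factor of the family that binds AP-1 and CRE elements, and because the Olr1 window holds such an element. They are read 5′ to 3′ on the minus strand, at chr5:17835847-17836146 and chr6:129507116-129507415, and capitals mark an AP-1 element.
Cd36: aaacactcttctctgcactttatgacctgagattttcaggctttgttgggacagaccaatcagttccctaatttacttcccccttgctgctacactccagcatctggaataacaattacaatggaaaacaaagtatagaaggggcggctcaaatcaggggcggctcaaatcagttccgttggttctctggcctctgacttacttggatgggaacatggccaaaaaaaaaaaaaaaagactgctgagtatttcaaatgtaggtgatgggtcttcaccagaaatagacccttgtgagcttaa
Olr1: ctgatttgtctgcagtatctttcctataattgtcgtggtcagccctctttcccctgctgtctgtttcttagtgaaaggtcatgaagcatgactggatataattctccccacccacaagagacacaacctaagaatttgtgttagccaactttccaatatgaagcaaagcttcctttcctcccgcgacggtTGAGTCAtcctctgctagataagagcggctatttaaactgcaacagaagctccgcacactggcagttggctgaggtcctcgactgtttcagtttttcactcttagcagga
The AP-1 element was searched as TGANTCA, with any base as N, a pattern that reads the same on both strands. It was found 1 time in the Olr1 window, as TGAGTCA starting 60 bases before the start site (position -60). The windows of Cd36 and Marco held no match. Of 32851 promoter windows of this length, 7.81% hold TGANTCA with any middle base, and the share with TGAGTCA was not counted. The CRE element TGACGTCA, also the same on both strands and present in 1.79% of windows, had no match in the 3 windows. These letter matches describe single windows and say nothing about binding.

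Levels are the deposited log2 values, so a difference of 1 is a doubling, and levels of different probe sets were not compared as amounts of RNA. Array medians lay between 8.42 and 8.57. Within groups, the replicate SD over the tested probe sets was 0.273 in WT and 0.0767 in the KO (root mean square, log2), so the KO arrays resembled each other far more closely. A pair of WT arrays stood apart. Unstimulated WT replicate 1 had a mean Pearson r across probe sets of 0.979 with its own group and of 0.983 with the unstimulated KO arrays. WT oxLDL replicate 3 had the lowest mean correlation with its own group, 0.960, and the narrowest spread of levels, with an interquartile range of 1.51 against 1.78 to 2.05 on the other 11 arrays. WT oxLDL replicate 2, not counted in the pair, had the next lowest mean correlation with its own group, 0.970, and the widest interquartile range, 2.05. Where leaving out arrays of the pair changed a call, the value without them is given beside the result. The levels of Atf3 and of macrophage markers were not analysed here, because their IDs are not paired with names. Fewer cells of a type and less RNA per cell cannot be told apart in such bulk samples.

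Cd36 was among the brightest probe sets on all 12 arrays, between the 99.3rd and the 99.9th percentile of the array, and it was higher after oxLDL in both genotypes. In unstimulated WT macrophages its log2 level was 12.81, 12.92 and 12.64 on replicates 1, 2 and 3, and with oxLDL it was 13.35, 13.50 and 13.07. Every WT array with oxLDL lay above every unstimulated WT array, the lowest of them being the narrow array, replicate 3. In unstimulated KO macrophages the level was 12.51, 12.63 and 12.49, and with oxLDL it was 13.23, 12.92 and 13.11. The KO groups did not overlap either. Such a lack of overlap was seen in 15.0% of tested probe sets for oxLDL in WT and in 40.2% for oxLDL in the KO.

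The rise of Cd36 was of about the same size in the genotypes. It went from 12.79 ± 0.14 to 13.31 ± 0.22 in WT and from 12.54 ± 0.07 to 13.08 ± 0.15 in the KO (mean log2 level ± SD, n = 3). This was a log2 difference of 0.52 in WT (SE 0.12, 95% interval 0.25 to 0.78, 1.43-fold, limma adjusted p = 0.0218) and of 0.54 in the KO (SE 0.12, interval 0.28 to 0.80, 1.45-fold, limma adjusted p = 0.0487). The adjusted p, by Benjamini-Hochberg over 39620 probe sets, comes from 1 limma fit over the 12 arrays, and values under 0.05 are said to pass. The response in the KO minus that in WT was 0.02 (SE 0.17, limma adjusted p = 1.00), with an interval of -0.35 to 0.40. A difference of responses within this interval remains possible. The interval is no limit of detection, since larger differences can also fail to pass after adjustment.

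Both calls of Cd36 lay close to the threshold and depended on which arrays were in the fit. The fit of 12 arrays gives each probe set 1 spread for both genotypes, though WT replicates spread more widely than KO replicates. With the 6 WT arrays alone the SE in WT was 0.14 (interval 0.20 to 0.83, limma adjusted p = 0.159). With the 6 KO arrays alone the SE in the KO was 0.08 (interval 0.37 to 0.71, limma adjusted p = 4.23e-04). Leaving out 1 array kept the WT call in 9 of 12 fits, losing it without unstimulated WT replicate 3, WT oxLDL replicate 1 or WT oxLDL replicate 2 (adjusted p = 0.0730, 0.0733 and 0.0581). The KO call held in 4 of 12 such fits. It was lost without any 1 of the 6 KO arrays (adjusted p between 0.0808 and 0.248) and without unstimulated WT replicate 1 or WT oxLDL replicate 1 (adjusted p just above 0.05, and 0.0787). The size of the Cd36 rise in the KO stayed between 0.47 and 0.62 in those 12 fits. Without 1 KO array the calls over all probe sets for oxLDL in the KO fell too, from 604 to between 106 and 224. Without the pair of deviant WT arrays the rise was 0.64 in WT (adjusted p = 0.00298) and 0.54 in the KO (0.00446).

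**Figure D1:**
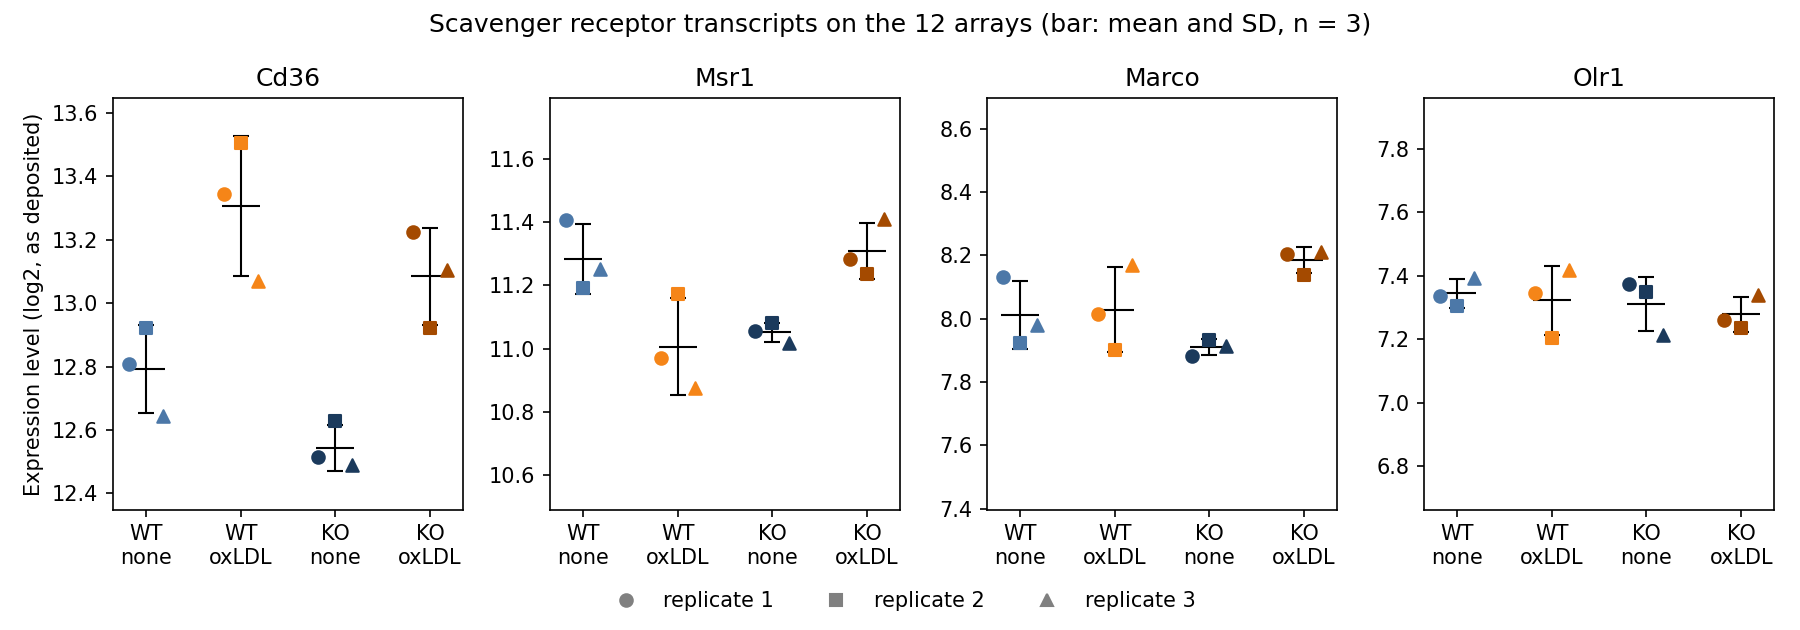
Expression level (log2, as deposited) of the 4 scavenger receptor transcripts in each of the 4 groups; each point is 1 array, its shape gives the replicate number, and the bar gives the mean and SD of 3 arrays. All panels span the same height on the log2 scale; Cd36 lies higher with oxLDL in both genotypes, Msr1 lower in WT and higher in the KO, Marco higher with oxLDL in the KO, and the groups of Olr1 overlap.

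Msr1, the first class A receptor to be described, showed a crossed pattern over the groups. In unstimulated WT macrophages its log2 level was 11.40, 11.19 and 11.25 on replicates 1 to 3, and with oxLDL it was 10.97, 11.17 and 10.87. All WT arrays with oxLDL lay below all unstimulated ones, narrowly so for the nearest arrays, both of them replicate 2. In unstimulated KO macrophages the level was 11.06, 11.08 and 11.02, and with oxLDL it was 11.28, 11.24 and 11.41. Here all arrays with oxLDL lay above all unstimulated ones.

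The group means of Msr1 fell into pairs. KO macrophages with oxLDL, at 11.31 ± 0.09, and unstimulated WT macrophages, at 11.28 ± 0.11, formed the upper pair, while unstimulated KO macrophages, at 11.05 ± 0.03, and WT macrophages with oxLDL, at 11.01 ± 0.15, formed the lower pair (mean log2 level ± SD, n = 3). The arrays within each pair overlapped. The difference with oxLDL was -0.28 in WT (SE 0.11, 95% interval -0.51 to -0.04) and 0.26 in the KO (SE 0.11, interval 0.03 to 0.49), and neither passed in the fit of 12 arrays (limma adjusted p = 0.158 and 0.441). With only the 6 KO arrays, whose replicates were closer, the KO difference passed (SE 0.05, limma adjusted p = 0.00463), and with only the 6 WT arrays the WT difference did not (SE 0.17, adjusted p = 0.726). Without unstimulated WT replicate 1 and WT oxLDL replicate 3 the WT difference shrank to -0.15 (SE 0.09, limma adjusted p = 0.283). The KO difference stayed at 0.26 without them and passed (SE 0.07, limma adjusted p just under 0.05).

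Between the genotypes, Msr1 was higher in the KO with oxLDL, by 0.30 (SE 0.11, 95% interval 0.07 to 0.53, 1.23-fold, limma adjusted p = 0.0495), with no overlap of the arrays. This call sat at the threshold. It was kept in 2 of the 12 fits that left out 1 array, those without unstimulated WT replicate 1 or WT oxLDL replicate 2, and lost without any other, with adjusted p up to 0.188, the highest without KO oxLDL replicate 3. It was lost in the fit of the 6 oxLDL arrays (0.132), with the replicate number as a block (0.0710) and with no filter on dim probe sets (0.0798). Without the deviant pair of WT arrays the difference was 0.24 (0.0287). Without oxLDL, Msr1 was 0.23 lower in the KO, again with no overlap of arrays, and this did not pass (log2 difference -0.23, SE 0.11, limma adjusted p = 0.162). The difference of the responses was 0.53 (SE 0.15, interval 0.21 to 0.86). Its unadjusted limma p was 0.00379, and after adjustment over all probe sets it did not pass (adjusted p = 0.894).

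Marco, a class A receptor known mainly for binding bacteria and particles on tissue macrophages, was dim on these arrays, between the 31.1st and the 40.9th percentile. It lay below the array median on every array and did not pass the filter, which asked for a level above the median on at least 3 of the 12 arrays, so its tests come from the fit of all 74007 probe sets. Its log2 level in WT was 8.13, 7.92 and 7.98 without oxLDL and 8.02, 7.90 and 8.17 with it, and these groups overlapped. In the KO it was 7.88, 7.93 and 7.91 without oxLDL and 8.21, 8.14 and 8.21 with it, and each array with oxLDL lay above each without.

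The group mean of Marco was highest in KO macrophages with oxLDL, at 8.18 ± 0.04, followed by WT with oxLDL at 8.03 ± 0.13, unstimulated WT at 8.01 ± 0.11 and unstimulated KO at 7.91 ± 0.02 (mean log2 level ± SD, n = 3). The first neighbours overlapped, the WT groups overlapped, and unstimulated WT overlapped unstimulated KO. In the KO the difference with oxLDL was 0.27 (SE 0.07, 95% interval 0.11 to 0.44, 1.21-fold, limma adjusted p = 0.190), which did not pass in the fit of 12 arrays and passed in that of the 6 KO arrays (SE 0.04, adjusted p = 0.00211). Without WT oxLDL replicate 3 it passed in the larger fit as well (adjusted p = 0.0367), and without that array and unstimulated WT replicate 1 the adjusted p was 0.0104. In WT the difference was 0.02 (SE 0.07, interval -0.14 to 0.18, limma adjusted p = 0.936), and it was -0.05 without WT oxLDL replicate 3 and 0.08 without unstimulated WT replicate 1. The difference of the responses was 0.26 (SE 0.10, interval 0.03 to 0.48), which did not pass (unadjusted p = 0.0303, limma adjusted p = 1.00).

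Olr1 was the dimmest of the members, between the 10.9th and the 15.7th percentile of the array, and no comparison of it passed. Its log2 level lay between 7.20 and 7.42 on all 12 arrays. The group means were 7.34 ± 0.05 in unstimulated WT, 7.32 ± 0.11 in WT with oxLDL, 7.31 ± 0.09 in unstimulated KO and 7.28 ± 0.05 in KO with oxLDL (mean log2 level ± SD, n = 3). All groups overlapped. The 95% interval of the oxLDL difference ran from -0.16 to 0.11 in WT and from -0.17 to 0.10 in the KO (limma adjusted p = 0.906 and 1.00, over 74007 probe sets). With 3 arrays per group, a change within these intervals remains possible, and larger changes can also fail to pass after adjustment.

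**Figure D2:**
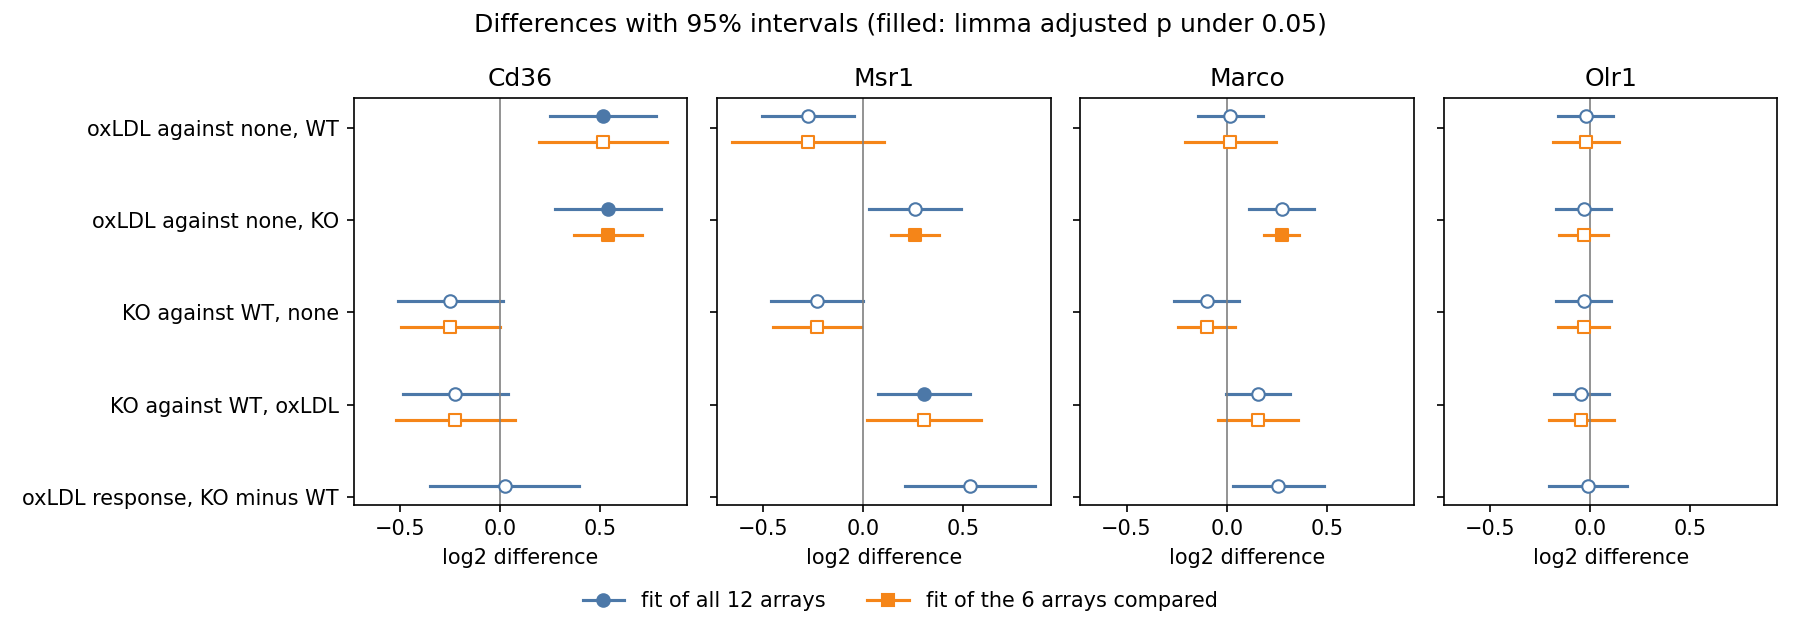
Log2 differences (horizontal axis) of the 4 transcripts in the 5 comparisons (rows), with 95% intervals from the fit of all 12 arrays (blue circles) and from the fit of the 6 arrays compared (orange squares); filled symbols have a limma adjusted p under 0.05. In the KO the intervals of the 6-array fit are narrower, and Cd36, Msr1 and Marco are filled there at 0.54, 0.26 and 0.27, while in WT the 6-array intervals are wider and none is filled.

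Cd36 had a lower mean in the KO than in WT in both states, and neither difference passed. The order of its group means was WT with oxLDL, KO with oxLDL, unstimulated WT and unstimulated KO. The oxLDL groups overlapped, and the other neighbours in this order did not overlap but came narrowly close. KO minus WT was -0.25 without oxLDL (SE 0.12, 95% interval -0.51 to 0.02, limma adjusted p = 0.189) and -0.22 with it (SE 0.12, interval -0.49 to 0.04, limma adjusted p = 0.189). After quantile normalization of the arrays these differences were -0.40 and -0.32 and both passed (limma adjusted p = 7.18e-04 and 8.92e-04). With oxLDL it also passed without WT oxLDL replicate 3, at -0.34 (adjusted p = 0.0285), and with arrays centred on their medians, at -0.26 (0.0449). Marco and Olr1 passed in neither state. Marco was -0.10 without oxLDL and 0.16 with it (limma adjusted p = 0.523 and 0.195). Without unstimulated WT replicate 1 the former was -0.04 (0.845), and without WT oxLDL replicate 3 the latter was 0.23 (0.0255). Olr1 was -0.03 and -0.04 (0.868 and 0.706).

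The calls were counted beside those over all probe sets tested. With oxLDL in WT, 1 of the 2 members tested after the filter passed, as a rise, where 7.18% of all tested probe sets passed and 2.06% passed as a rise. In the KO the corresponding figures were 1 of 2, 1.52% and 0.603%. In the fit of the 6 KO arrays alone both tested members passed as rises, where 25.0% of probe sets passed and 14.1% passed as rises, and without the filter Marco passed as well, where 11.9% and 6.41% did. None of the 2 tested members passed between the genotypes without oxLDL, where 16.8% of probe sets did, and at an unadjusted limma p under 0.05 only Msr1 would have. Of the 2, 1 passed with oxLDL, as higher in the KO, where 28.8% passed and 19.9% were higher. With only the 6 arrays compared, 0.699% passed for oxLDL in WT and 18.9% between the genotypes with oxLDL, and neither tested member did. At an unadjusted limma p under 0.05, Cd36 would in the first and Msr1 in the second. For the difference of responses none of the 2 passed, against 0.00252% of probe sets, which is 1 in all. At an unadjusted limma p under 0.05 Msr1 would. Without the filter the shares that passed in these comparisons were 3.40%, 0.619%, 7.75%, 15.1% and 0.00135%, and Marco and Olr1 passed in none of them. By unadjusted limma p in the 12-array fits, Msr1 would also be under 0.05 for oxLDL in WT (0.023) and the KO (0.031). Marco would be for oxLDL in the KO (0.00295) and for the difference of responses (0.0303). How many of all probe sets had an unadjusted p under 0.05 was not counted. Adjustment never lowers a p-value, so that share is at least the share that passed. The unadjusted values are therefore not read as results about these receptors.

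Groups that did not overlap were also common between the genotypes, in 46.6% of tested probe sets without oxLDL and 41.4% with it. Cd36 and Msr1 were among them in 3 of the 4 comparisons, both with oxLDL within a genotype and the genotypes without oxLDL, and Msr1 was among them in the fourth. A lack of overlap was therefore nothing particular to these receptors. With oxLDL, 1.77% of tested probe sets had a higher difference than Cd36 in WT and 0.886% in the KO, and counted in either direction 7.89% and 2.59% had a larger difference. The median difference of the 4 members with oxLDL was -0.002 in WT and 0.27 in the KO, against -0.01 and 0.03 over all tested probe sets. Between the genotypes it was -0.17 without oxLDL and 0.06 with it, against -0.02 and -0.001. The medians of the members count Marco and Olr1, which did not pass the filter. Those over all tested probe sets leave such dim probe sets out.

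**Figure D3:**
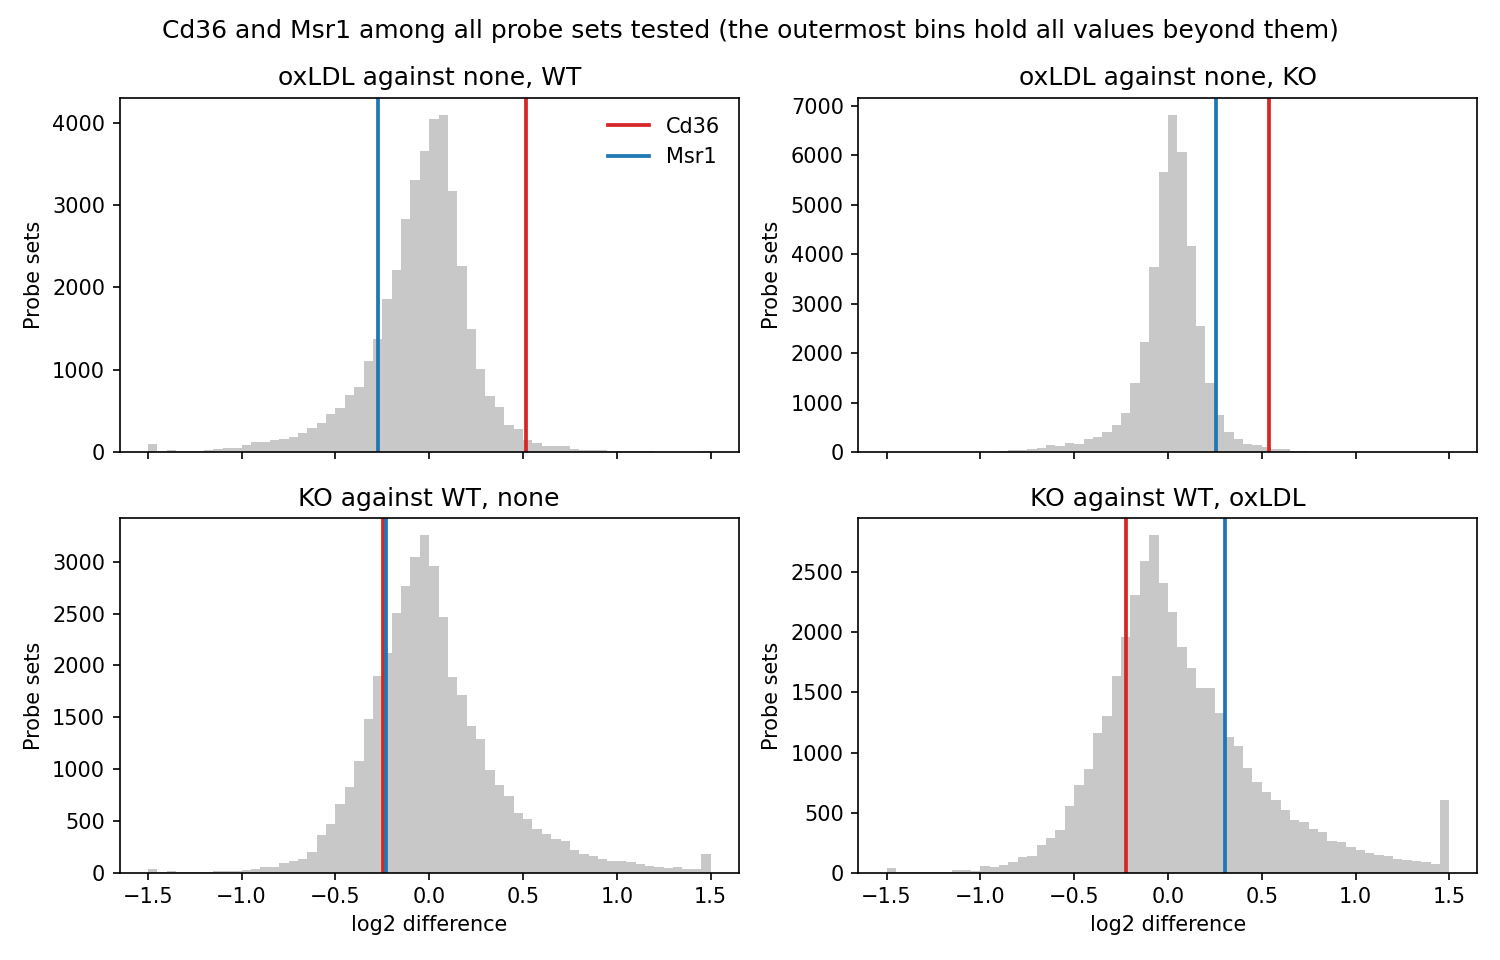
Distribution of the log2 difference (horizontal axis) over the 39620 probe sets tested, as the number of probe sets per bin (vertical axis), in the 4 comparisons between groups, with Cd36 (red) and Msr1 (blue) marked. Cd36 lies in the upper tail of both oxLDL comparisons, with 1.77% and 0.886% of probe sets beyond it, and near the bulk in both genotype comparisons.

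Over the 12 fits that left out 1 array each, the Cd36 difference with oxLDL lay between 0.42 and 0.63 in WT, and that of Msr1 between -0.36 and -0.21 in WT and between 0.21 and 0.29 in the KO. The Marco difference in the KO lay between 0.26 and 0.30. No sign of these 4 differences, or of the Cd36 difference in the KO, changed in any of those fits, while the small differences of Marco and Olr1 with oxLDL in WT changed sign.

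**Figure D4:**
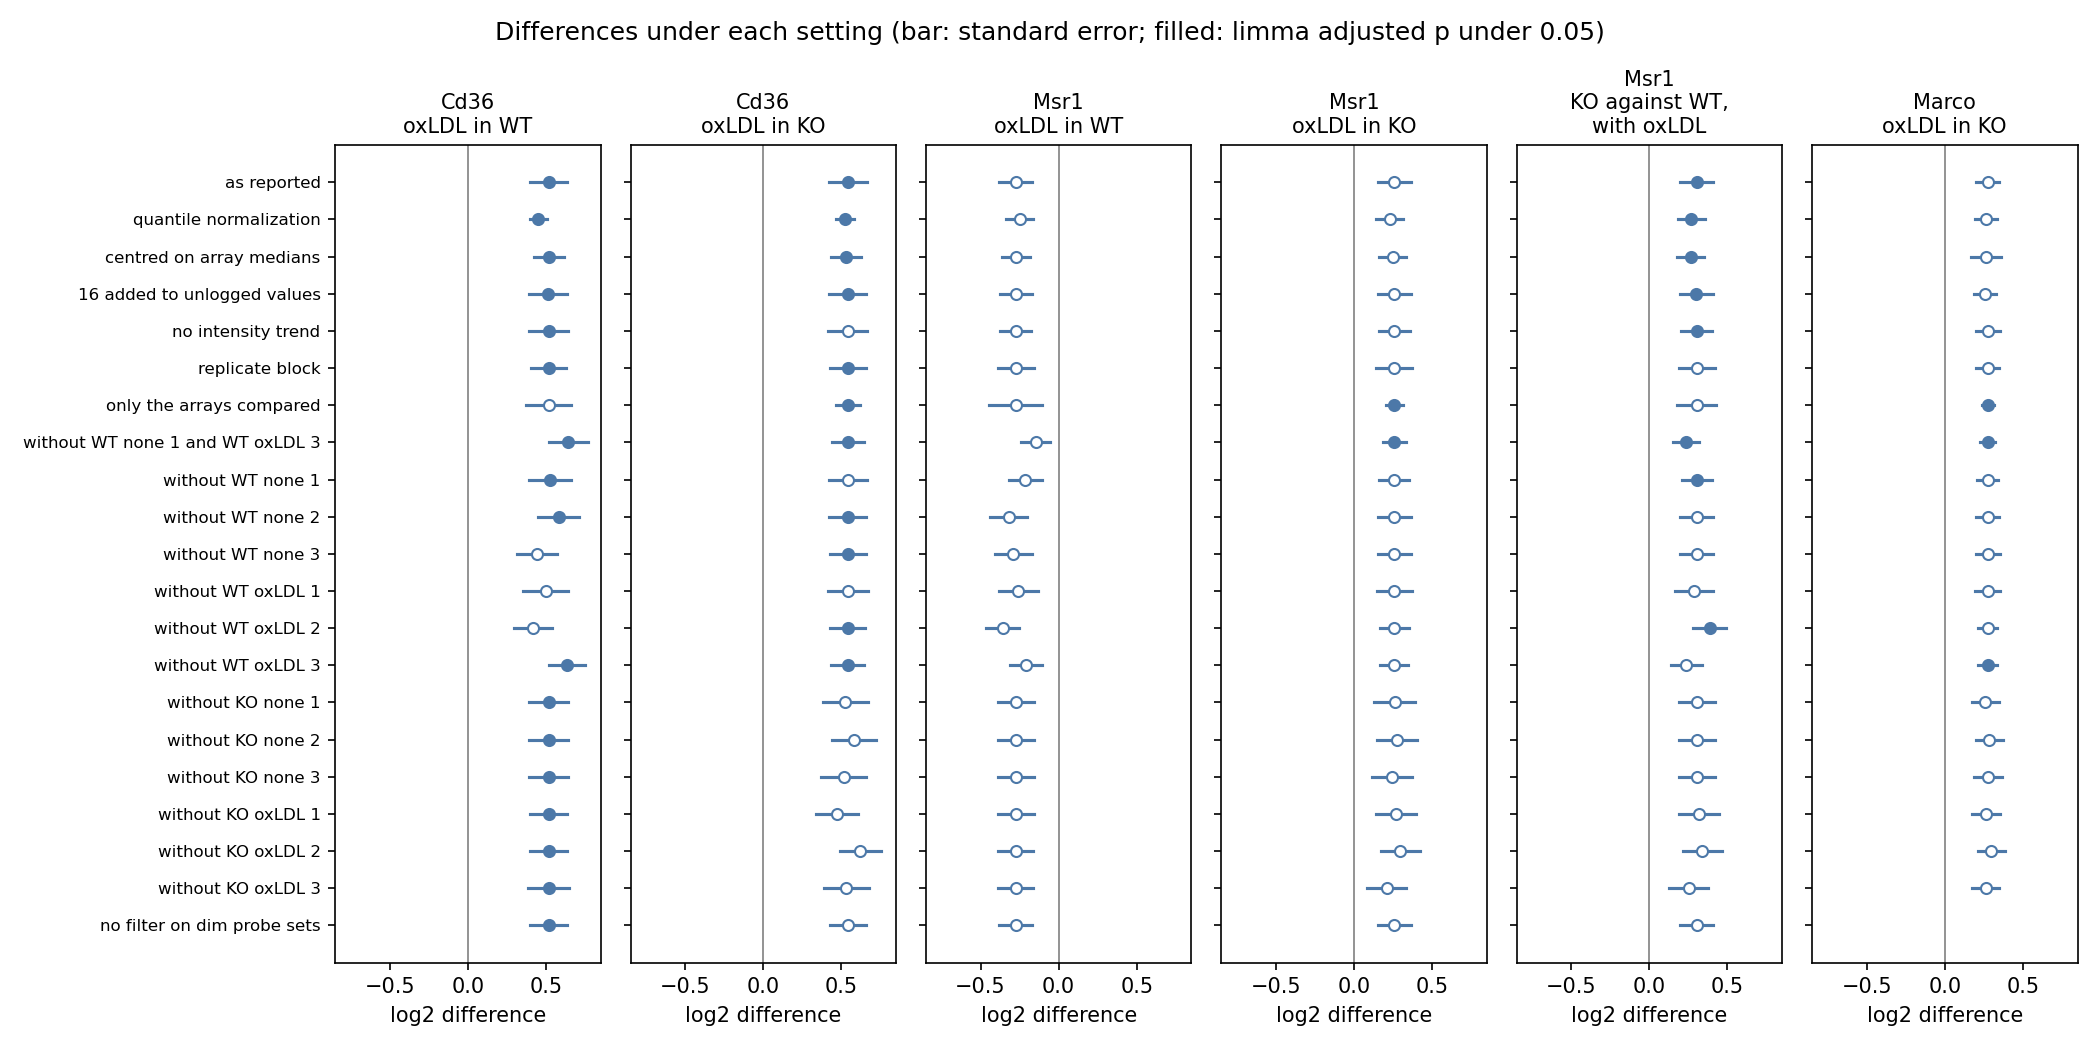
Log2 difference (horizontal axis, bar: standard error) for 6 member comparisons under each setting (rows); filled points have a limma adjusted p under 0.05, Marco was fitted with no filter throughout, and array weights, whose estimate did not converge, are left out. Every point stays on the side of 0 where the reported value lies, and the Msr1 difference in WT is smallest, at -0.15, without unstimulated WT replicate 1 and WT oxLDL replicate 3.

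The profiles most like those of the receptors were sought by Pearson r over the 12 arrays, leaving out IDs whose centred values stayed within 0.15 of the member on every array. No ID stayed that close to Cd36. The most alike were ENSMUST00000062296 (r = 0.985), whose mean went from 9.23 to 9.58 with oxLDL in WT and from 9.12 to 9.41 in the KO, and ENSMUST00000134046 (r = 0.982), from 10.54 to 10.96 and from 10.43 to 10.86. In all, 55 probe sets had an r over 0.95 with Cd36. These values share the arrays and the genotype and oxLDL differences, so a high r describes a shared pattern over 4 groups. The IDs are transcripts not paired with genes here, so an ID most like a member may belong to the same gene.

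Msr1 was followed within 0.15 by 5 IDs, the closest of them ENSMUST00000110488 (r = 0.992). Whether these are transcripts of Msr1 itself or of other genes cannot be told here, so they are no separate support for the crossed pattern. Beyond these the most alike were ENSMUST00000107427 (r = 0.868) and ENSMUST00000144371 (r = 0.837). The means of ENSMUST00000107427 went from 8.99 to 8.71 with oxLDL in WT and from 8.85 to 8.98 in the KO, and those of ENSMUST00000144371 from 9.70 to 9.58 and from 9.64 to 9.85. Neither passed the test in either genotype. With Marco 244 IDs stayed within 0.15 (the closest at r = 0.946) and with Olr1, whose whole range was narrow, 10509 (the closest at r = 0.922). Among the IDs that remained, the most alike to Marco were ENSMUST00000047028 (r = 0.819) and ENSMUST00000021595 (r = 0.803), and to Olr1 ENSMUST00000128919 (r = 0.808) and ENSMUST00000124182 (r = 0.794). The profiles of Marco and Olr1 spanned 0.33 and 0.21 on the log2 scale over all 12 arrays, and the 3 WT arrays with oxLDL alone spanned that range of Olr1.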

How the data were processed

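Levels were measured on 12 Affymetrix Mouse Exon 1.0 ST arrays. The authors deposited log2 values, 1 for each transcript-level probe set, per the labels. PLIER and Affymetrix Power Tools appear in the submitters' processing notes, while versions, background correction, normalization and genome build were not given in the sources used here. Arrays were grouped by the genotype and stimulus of their titles, and precision is limited by their number.

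The filter kept probe sets above the array median on at least 3 of 12 arrays (39620, 53.5%). Tests used limma 3.58.1 in R 4.3.3, with 1 mean per group, 5 contrasts, eBayes with a trend on intensity, and adjustment by Benjamini-Hochberg over every tested probe set. The fit was tested on simulated data. The simulation gave each probe set the same spread on all 12 arrays, so it did not test the unequal spread of WT and KO. Olr1 and Marco, below the filter, were tested without it, as decided after seeing their levels. No label links samples of a group by culture or day. The p-values therefore cover only the spread between these samples, 1 mouse each, and part of that spread may be technical. A processing day shared by a genotype cannot be told apart from the genotype. The replicate numbers name separate mice and were used as a block only in an alternative fit. Alternatives were other normalizations, filters and eBayes settings, array weights, the replicate block, only the arrays compared, and arrays left out. All 4 members are named in every comparison, each with the 2 probe sets most like it. Members, lists and tests were chosen with earlier results of these data known. Other uptake genes and cell type markers, listed as symbols, were not analysed here, since 0 entries of the gene table carry an Ensembl ID. Promoter windows came from RefSeq (GRCm38.p6).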

Additional observations from a re-analysis of the deposited data

Results flagged for a closer look

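Msr1 was singled out because its arrays moved in opposite directions with oxLDL in the genotypes: all 3 WT arrays with oxLDL lay below all 3 without, and all 3 KO arrays with oxLDL lay above all 3 without. Groups without overlap were seen in 15.0% of tested probe sets for oxLDL in WT and in 40.2% in the KO. The share without overlap in opposite directions was not counted. The response in the KO minus that in WT was 0.53 on the log2 scale (SE 0.15). In limma this difference had an unadjusted p of 0.00379 and did not pass after adjustment over all 39620 probe sets (adjusted p = 0.894), with a range of adjusted p from 0.264 to 1.00 over the fits that left out 1 array. Without unstimulated WT replicate 1 and WT oxLDL replicate 3 it was 0.41 (SE 0.12, adjusted p = 0.264). The part of these arrays in the rest of the difference was not tested. The flag drew on the same values as these p-values, so they give it no separate support.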

How the results depend on the processing

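Of 166 alternative fits of the 20 member differences, apart from those that left out 1 array, 140 kept direction and side of the threshold. The cause of the changes was not tested. With only the arrays compared, Cd36 in WT (0.52, adjusted p = 0.159) and Msr1 in the KO against WT with oxLDL (0.30, 0.132) no longer passed, and Msr1 (0.26, 0.00463) and Marco (0.27, 0.00211) passed for oxLDL in the KO. Without the intensity trend and without the filter, Cd36 in the KO (0.54) no longer passed (0.0601 and 0.0696), and without the filter neither did Msr1 in the KO against WT with oxLDL (0.30, 0.0798). Quantile normalization let Cd36 pass between the genotypes (-0.40 and -0.32) and turned the sign of the Olr1 difference of responses (0.0074). Centring on medians let Cd36 pass between the genotypes with oxLDL (-0.26). Without the pair of deviant WT arrays, Msr1 (0.26, adjusted p just under 0.05) and Marco (0.27) passed for oxLDL in the KO, Cd36 (-0.34) and Marco (0.23) passed between the genotypes with oxLDL, and signs turned for Olr1 between the genotypes with oxLDL (0.0040) and for the differences of responses of Cd36 (-0.10) and Olr1 (0.0413). Array weights did not converge, giving WT oxLDL replicate 1 a weight of 1893 against 0.0224 to 2.54 elsewhere, so their calls are no check: Msr1 passed in WT (-0.31), in the KO (0.28) and for the difference of responses (0.59), Cd36 between the genotypes with oxLDL (-0.22), and Marco in the KO (0.29), between the genotypes with oxLDL (0.18) and for the difference of responses (0.28).

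Leaving out 1 array gave, for oxLDL in WT, 0.42 to 0.63 for Cd36, -0.36 to -0.21 for Msr1, -0.0521 to 0.0817 for Marco and -0.0700 to 0.0364 for Olr1. For oxLDL in the KO it gave 0.47 to 0.62 for Cd36, 0.21 to 0.29 for Msr1, 0.26 to 0.30 for Marco and -0.0820 to -0.0023 for Olr1. Between the genotypes it gave, without oxLDL, -0.32 to -0.18 for Cd36, -0.28 to -0.17 for Msr1, -0.145 to -0.0410 for Marco and -0.0637 to 0.0161 for Olr1, and with oxLDL -0.34 to -0.12 for Cd36, 0.24 to 0.39 for Msr1, 0.0919 to 0.226 for Marco and -0.102 to 0.0040 for Olr1. For the difference of responses it gave -0.0936 to 0.124 for Cd36, 0.47 to 0.62 for Msr1, 0.193 to 0.327 for Marco and -0.0694 to 0.0370 for Olr1.

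With the replicate number as a block, Msr1 in the KO against WT with oxLDL (0.30) no longer passed (adjusted p = 0.0710). No other call of a member changed. Deviations of same-numbered arrays from their group means correlated at -0.31 to 0.51 across probe sets. The highest value, 0.51, was that of the WT arrays of replicate 2. With so few arrays per group, these values cannot decide whether the replicate numbers pair arrays.

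Counts over all probe sets moved more. For oxLDL in WT, 2844 passed, against 6743 after quantile normalization, 4622 after centring, 277 with the 6 arrays alone, 9835 with array weights and 8362 without the deviant pair. For oxLDL in the KO, 604 passed, against 1843, 1199, 9896, 14261 and 3580. For KO against WT without oxLDL, 6640 passed, against 12241 after quantile normalization, 12923 with array weights and 18734 without the pair. With oxLDL, 11427 passed, against 17946, 33266 and 22300, and 7477 with the 6 arrays alone. For the difference of responses, 1 passed, against 16, 1406 and 109, and 5 after centring. Leaving out 1 array gave 2116 to 7304, 106 to 2117, 2797 to 13531, 7235 to 19771 and 1 to 17.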
